A study of Sus scrofa with 2 samples.

Results

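The peaks described here are those of ZBTB16 CUT&Tag that cover the transcription start site (TSS) of a protein-coding transcript, called coding TSS peaks below. They were chosen from the authors' annotation of each deposited peak list by 3 conditions: a promoter class, a distance of 0 bp to the TSS, and an assigned RefSeq transcript of the coding kinds XM (predicted) or NM (curated). Replicate 1 held 4596 such peaks among 10273 peaks (44.7%), and replicate 2 held 3438 among 7301 (47.1%), so 8034 of 17574 peaks were described. Both libraries belong to 1 group of wild-type immature spermatogonia from pig testicles, with 100000 cells taken per library and no second condition. The study set out to find the genes that ZBTB16 binds in these cells. The labels do not say whether the libraries came from separate animals or cultures, and an IgG library was not analysed here.

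ZBTB16, also called PLZF, is a zinc finger transcription factor with a BTB domain that recruits histone deacetylase complexes, and in mouse it is needed to maintain undifferentiated spermatogonia. CUT&Tag brings a transposase to an antibody-marked chromatin protein and sequences the DNA fragments that the enzyme releases. The TSS is where RNA polymerase begins a transcript, and the core promoters of many broadly expressed genes lie in open chromatin without nucleosomes. A pair of genes read in opposite directions from neighbouring starts shares one such promoter. The transposase itself also cuts open chromatin to some extent.

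Coordinates refer to the pig assembly Sscrofa11.1. Folds are those the authors deposited for each peak. The sources used here do not say whether their background came from the same library or from a control. The number of fragments at each summit was recovered from the deposited fold and p-value. All 4596 and 3438 peaks covered the TSS of their assigned transcript. They lay at 4533 genes in replicate 1 and 3411 in replicate 2, of which 62 and 27 carried more than 1 peak. Curated NM transcripts accounted for 556 and 420 peaks, and predicted XM transcripts for the remaining 4040 and 3018. The coding TSS peaks covered 3008 kb in replicate 1 and 2026 kb in replicate 2, which was 52.6% and 53.4% of all bases under peaks. The lists hold positions and no RNA, so the labelled cell type was not checked from expression.

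Coding TSS peaks were broad and reached about as far into the gene as before it. Their median width was 633 bp in replicate 1 (quartiles 480 to 802, range 268 to 1975) and 554 bp in replicate 2 (422 to 719, range 272 to 1591). They extended a median of 303 bp upstream and 308 bp downstream of the TSS in replicate 1, and 276 and 281.5 bp in replicate 2. Choosing peaks that cover the TSS favours a similar reach on both sides, so these values are a description. The median fold was 5.49 in replicate 1 and 5.34 in replicate 2, on 19 and 16 fragments at the summit. These heights are low, and a summit of this size carries wide counting error. Width went with height, with a Spearman rho of 0.46 across the 4596 peaks of replicate 1 and 0.47 across the 3438 of replicate 2, where peaks share a library and a depth.

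Coding promoter peaks that stopped short of the TSS, all of them upstream, were narrower and lower, with median widths of 414 bp in replicate 1 (n = 956) and 402 bp in replicate 2 (n = 729) and median folds of 4.63 and 4.90. A wide peak is more likely to hold any given base, so the width is bound to the choice of peaks and is given without a test. TSS-spanning peaks of noncoding transcripts were much like the coding ones, at 636 bp (n = 573) and 569 bp (n = 413) and median folds of 5.47 and 5.34. Near the limit of the rule the values lay closer together. In replicate 1 the 282 coding TSS peaks whose downstream edge passed the TSS by at most 50 bp had a median width of 472.5 bp and fold of 5.31, and the 186 peaks that ended at most 50 bp before it had 425.5 bp and 4.998. In replicate 2 the values were 443 bp and 5.35 for 266 peaks just inside, and 420.5 bp and 5.09 for 154 just outside. Of these peaks 62.8% just inside and 56.5% just outside overlapped a peak of the other library in replicate 1, and 85.7% and 78.6% in replicate 2. On the downstream side, where the peaks just outside are not in the promoter class, the shares were 56.9% inside and 45.03% outside in replicate 1, and 81.7% and 83.2% in replicate 2.

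The TSS lay nearer the middle of the peak than its ends. When each peak was cut into 10 equal parts from its upstream edge, the fifth and the sixth part held 14.4% and 14.5% of the TSSs in replicate 1, and the first and the last held 8.03% and 6.16%. In replicate 2 the middle parts held 13.1% and 12.9%, and the outer parts 9.39% and 7.65%. The central 50% of the peak held the TSS in 62.2% of replicate 1 peaks and in 56.5% of replicate 2 peaks.

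Summits of the tallest coding TSS peaks lay upstream of the TSS, and those of the lowest ones just downstream. Over all peaks the median summit stood at −2 bp from the TSS in both libraries, where a negative value is upstream in the direction of transcription. The quartiles were −138 to 124 bp in replicate 1 and −129 to 126 bp in replicate 2. Choosing peaks that cover the TSS also holds their summits near it. In the lowest quartile by height of replicate 1, with 7 to 15 fragments, the median was 27 bp (95% order-statistic interval 13 to 40). The next quartiles stood at 14.5 and −9 bp, and the highest, with 27 to 173 fragments, at −52.5 bp (−70 to −35). Replicate 2 gave 18.5 bp (12 to 29), 10 bp, −9 bp and −45 bp (−65 to −29) in the same order, with 7 to 13 fragments in the lowest and 22 to 225 in the highest quartile. The share of summits upstream of the TSS was 58.9% in the highest and 44.1% in the lowest quartile of replicate 1, and 59.0% and 43.9% in replicate 2.

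**Figure D1:**
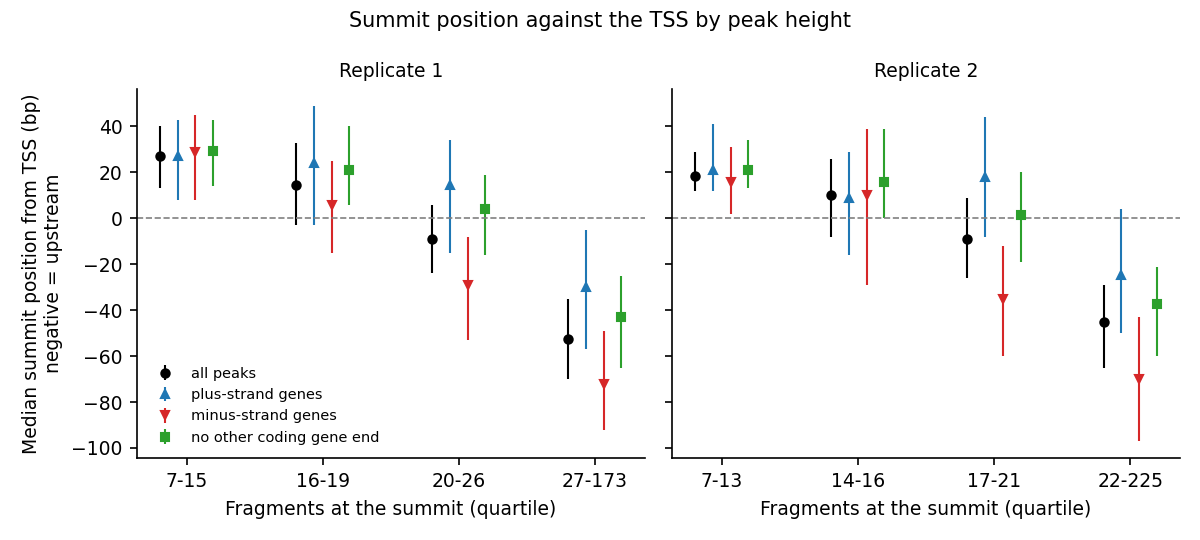
Median summit position from the TSS in bp (vertical axis, negative is upstream) by quartile of fragments at the summit (horizontal axis) in each library, for all coding TSS peaks, for plus-strand and minus-strand genes, and for peaks that hold no end of another coding gene. Bars are 95% order-statistic intervals of the median; the medians of all peaks are 27 and 18.5 bp in the lowest quartile and −52.5 and −45 bp in the highest.

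The highest quartile lay upstream of the lowest on both strands and away from neighbouring genes, although the steps between were not even: plus-strand genes of replicate 2 stood at 21, 9, 18 and −24.5 bp (−50 to 4) from the lowest to the highest quartile. The highest quartile had a median of −30 bp at plus-strand genes and −72 bp at minus-strand genes in replicate 1, against 27 and 29 bp in the lowest. Minus-strand genes of replicate 2 had −70 bp in the highest and 16 bp in the lowest quartile. Peaks that held no end of another coding gene had −43 bp in the highest and 29.5 bp in the lowest quartile of replicate 1, and −37.5 and 21 bp in replicate 2. When the quartiles were made by fold, the highest minus the lowest median was −35 bp in replicate 1 and −37.5 bp in replicate 2, against −79.5 and −63.5 bp by fragments. By quartiles of the recovered background the difference was −94 and −68 bp. Height and background moved together, with a Spearman rho of 0.80 across replicate 1 and 0.79 across replicate 2 peaks. From the lowest to the highest quartile of width the median summit stood at 14, 13, −14 and −44.5 bp in replicate 1. In replicate 2 it stood at 15, 9, −17 and −24 bp. The separate parts of height, background and width were not tested.

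Summits also differed between the strands over all peaks and at predicted XM transcripts. Plus-strand genes had a median summit of 9 bp (−1 to 20) in replicate 1 and 12 bp (0 to 20) in replicate 2, while minus-strand genes had −11 bp (−24 to −3) and −16 bp (−29 to −5). On chromosome coordinates, regardless of strand, summits therefore stood 10 bp (3 to 19) and 13 bp (5 to 20) past the TSS. In replicate 1 this shift was −1 bp (−12 to 11) in the lowest and 24 bp (3 to 38) in the highest height quartile. In replicate 2 it was 6 bp (−5 to 16) and 27 bp (5 to 48). These intervals overlap within each library, and a change of the shift with height was not tested. The median of −2 bp over both strands is thus a balance of opposite strand values. Curated NM transcripts had a median of −34.5 bp in replicate 1 and −10 bp in replicate 2, and predicted XM transcripts had 3 and 0 bp. At XM transcripts the plus and minus strands had 18 and −10 bp in replicate 1, and 14 and −17 bp in replicate 2. At the fewer NM transcripts they had −35 and −28 bp in replicate 1, and −7.5 and −11.5 bp in replicate 2. There the shift on chromosome coordinates was −9.5 bp (−34 to 13) and −3.5 bp (−23 to 16). The annotated start itself is a model prediction for most of these genes, which limits how finely positions can be read.

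The strongest coding TSS peaks present in both libraries are the 15 named here, by the lower of their ranks by fold in the 2 libraries, and most of them kept their summit within 100 bp between the libraries. UBXN6, an adaptor of the VCP ATPase, led with folds of 12.6 and 12.3 in replicates 1 and 2, on 122 and 90 fragments (exact 95% Poisson intervals 101 to 146 and 72.4 to 111). Its peak lay at chr2:74357126-74357697 in replicate 1, with the summit at −140 bp in both libraries. ZFPM1, a cofactor of GATA factors, had 98 and 75 fragments and summits at −39 and −128 bp. The other summits stood on either side of the TSS.

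KDM4A, a histone lysine demethylase, had its summit at −331 bp in both libraries, on 57 and 39 fragments (chr6:167641819-167642711). TDG, a thymine DNA glycosylase of active DNA demethylation, had it downstream, at 219 and 218 bp, on 62 and 40 fragments (chr5:80491638-80492497). ATF7, a bZIP factor, had summits at 35 and 139 bp, and ZNF146, a zinc finger protein, at 69 and 66 bp. CDCA2, which targets protein phosphatase 1 to chromatin, had summits at 141 and 116 bp on 79 and 53 fragments. For KDM4A and TDG the libraries thus placed the summit at the same base or 1 bp apart.

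Among RNA and protein factors, CNOT9 of the CCR4-NOT deadenylase had summits at 79 and 92 bp, and RPP40 of ribonuclease P at 145 and 114 bp. RPP40 had the higher fold in replicate 2, at 11.9 against 10.9 in replicate 1. MMS19, a factor of cytosolic iron-sulphur protein assembly, had summits at −271 and −362 bp. The remaining genes were NDUFA11 of complex I (−660 and −577 bp), TOMM40, the outer membrane import channel (−379 bp in both), COQ7 of coenzyme Q synthesis (136 and 74 bp), ALDH6A1 of valine breakdown (−104 and −326 bp) and OPA3 (220 and 284 bp). Fold and fragments did not rank alike: NDUFA11, at folds of 10.5 in both libraries, had 126 and 99 fragments over a background of 11.06 and 8.56. COQ7, at 10.6 and 9.86, had 38 and 32 fragments over 2.68 and 2.35. Some of the 15 peaks also held an end of a neighbouring coding gene in replicate 1. The neighbours were KCTD9 at CDCA2, USP37 at CNOT9, LIN52 at ALDH6A1 and ZNF565 at ZNF146.

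**Figure D2:**
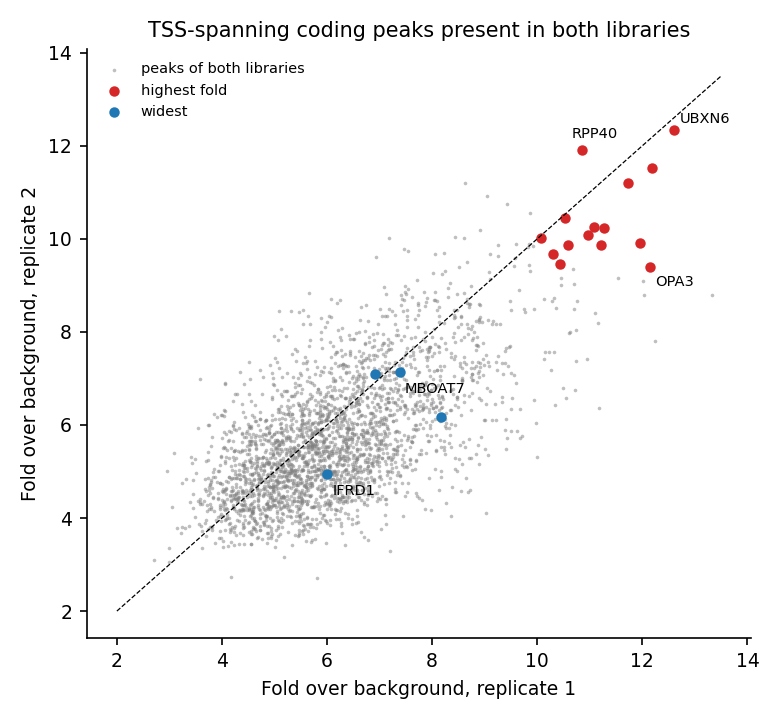
Fold over background of coding TSS peaks found in both libraries (2847 pairs, grey), replicate 1 on the horizontal and replicate 2 on the vertical axis, with the 15 strongest in red, the 4 widest in blue and equality as a dashed line. The strongest, UBXN6, stood at 12.6 and 12.3. The 4 widest had folds from 6.003 to 8.16 in replicate 1 and from 4.96 to 7.13 in replicate 2.

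The widest peaks were a separate choice from the strongest. The widest pair was at MBOAT7, a lysophospholipid acyltransferase, with 1793 bp in replicate 1 and 1550 bp in replicate 2 at folds of 7.38 and 7.13 (chr6:55938413-55940205), and it also held an end of TSEN34, a subunit of the tRNA splicing endonuclease. IFRD1, a transcriptional coregulator, followed with 1507 and 1569 bp at folds of 6.003 and 4.96. NFYA, the DNA-contacting subunit of the CCAAT-binding factor NF-Y, had 1458 and 1423 bp. Its replicate 1 peak also held an end of OARD1. OGDH of the citric acid cycle had 1347 and 1365 bp. None of these 4 was among the 15 strongest by fold, as is likely for so few genes of 2847 pairs. Across all coding TSS peaks width and fold rose together, with a Spearman rho of 0.32 in replicate 1 and 0.33 in replicate 2.

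Some summits stood far from the TSS that their peak covered. CIZ1, a nuclear matrix protein of DNA replication, had summits at −964 and −871 bp, and MON1B, a factor of endosome maturation, at −602 and −603 bp. DNAH11, an axonemal dynein heavy chain, had −598 and −728 bp. Downstream, ATF5, a bZIP factor, had summits at 663 and 635 bp, NR1H2, the oxysterol receptor LXR beta, at 707 and 552 bp, and TEKT1, a microtubule protein of cilia and flagella, at 494 and 504 bp. The ATF5 peak also held an end of IL4I1, an amino acid oxidase gene, and an end of NUP62, a nucleoporin. These 6 genes were chosen for far summits on the same side in both libraries. NUP153, a nucleoporin named after its values were seen, had its summit at −918 bp in replicate 1 and at 232 bp in replicate 2, where the peaks were assigned to different transcripts.

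Coding TSS peaks occurred at genes of all lengths. The length of the assigned transcript's span had a median of 26742.5 bp in replicate 1 and 26993 bp in replicate 2, against 29495 and 29416 bp at upstream coding promoter peaks and 14572 and 14714 bp at noncoding transcripts. The longest genes with a pair were DLG2, a synaptic scaffold (1971 kb, folds 6.04 and 5.79), FHIT, a diadenosine hydrolase (1441 kb, 4.79 and 7.02), and WWOX, an oxidoreductase (961 kb, 6.69 and 5.76). The shortest were MRPL41 of the mitochondrial ribosome (0.675 kb, 4.68 and 5.23), SF3B5 of the spliceosome (0.751 kb, 6.31 and 5.33) and MIF, a cytokine (0.761 kb, 6.14 and 4.20). The DLG2 peak held an end of TMEM126B, a factor of complex I assembly, as well. Longer genes had slightly lower summits, with a Spearman rho between length and fragments of −0.13 in replicate 1 and −0.12 in replicate 2, while length and fold had 0.043 and 0.037. Length and background had −0.23 and −0.22.

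Of the 16491 protein-coding genes with a unique name in the RefSeq gene table, 16.2% had a coding TSS peak in both libraries (2672 genes), 26.3% in replicate 1 (4331) and 19.8% in replicate 2 (3263). The share in both was highest at genes of middle length. It was 10.1% (95% Wilson interval 8.76 to 11.7) in the shortest of 10 equal length classes, 20.7% (18.8 to 22.7) in the class of 25.4 to 36.7 kb, and 12.2% (10.8 to 13.9) in the longest. The median gene length was 29.4 kb for genes with a peak in both libraries, 29.7 kb for those with a peak in 1, and 23.5 kb for those with none. The rise and fall over length appeared in each library alone.

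**Figure D3:**
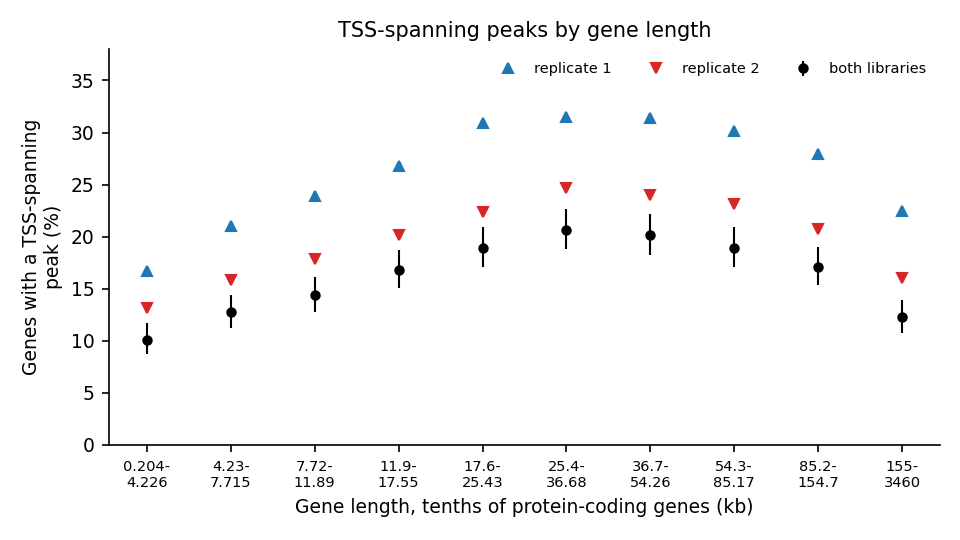
Share of protein-coding genes with a coding TSS peak in replicate 1, in replicate 2 and in both libraries (vertical axis, %), by class of gene length in kb (horizontal axis, 10 classes of about 1650 genes). Bars are 95% Wilson intervals for both libraries; the share in both is 10.1% in the shortest class, 20.7% in the sixth and 12.2% in the longest.

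By chromosome, 39 of 609 genes on X (6.404%) had a coding TSS peak in both libraries, against 2619 of 15671 on the autosomes (16.7%). Among autosomes the share was highest on chromosome 1, at 20.3% of 1431 genes, and lowest on chromosome 8, at 10.1% of 576. None of the 5 genes on Y in the table had one in both libraries, and 1 had one in replicate 2. The X share had a 95% Wilson interval of 4.72 to 8.63% and was not tested. The median gene length on X was 24.1 kb against 25.7 kb on the autosomes. Peak height and the number of chromosome copies were not taken into account.

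Some peaks reached a neighbouring gene. In replicate 1, 642 coding TSS peaks (13.97%) also held an end of another protein-coding gene, and in replicate 2, 465 did (13.53%). In 615 and 447 of them that gene lay on the upstream side. Being chosen for reaching an upstream gene favours wide peaks with a long upstream reach, so the values that follow are a description, and recurrence rose with width as well. These peaks were wider and taller, with medians of 738 bp and 23 fragments in replicate 1 and 651 bp and 18 fragments in replicate 2. Peaks with no other coding gene end had medians of 615 bp and 19 fragments, and 541 bp and 16 fragments. Their summits also lay further upstream, at a median of −56 bp in replicate 1 and −47 bp in replicate 2, against 8 and 5 bp at peaks with no other end. They recurred in 82.6% and 96.9% of cases, against 69.8% and 88.5%.

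The strand of the neighbour is known only where the files assign that gene a peak, and it was opposite in 96 and 47 cases and the same in 17 and 18. MMAB, of cobalamin metabolism, and MVK, the mevalonate kinase, are such a pair, with 1 peak over both starts (chr14:41357160-41357995). It was assigned to MMAB at folds of 8.60 and 7.88 with summits at −98 and −103 bp. NUCB2, a calcium-binding protein, and PIK3C2A, a lipid kinase, shared a peak of folds 8.60 and 7.35. C4H8orf59 shared one with LOC100152714 (8.75 and 7.10, summit at −103 bp in both). FYTTD1, an mRNA export factor, and RUBCN, a regulator of autophagy, shared one of 7.97 and 6.43, with its summit downstream of the FYTTD1 start, at 249 and 135 bp.

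Such promoters also changed their gene name between the lists. Of the 2847 pairs of coding TSS peaks that overlapped between the libraries, 2785 were assigned to the same gene and 2587 to the same transcript. The other 62 were assigned to different genes, and in each of the 62 the genes ran in opposite directions, with starts a median of 207.5 bp apart (18 to 1001). At chr18:11532849-11533617 the replicate 1 peak was assigned to CREB3L2, a bZIP factor (fold 9.95), and the replicate 2 peak to AKR1D1, a steroid reductase (6.54), although their summits were 4 bp apart. RFX1, a transcription factor, and RLN3, a relaxin peptide, alternated likewise (7.31 and 7.01). So did RHOA, a small GTPase, and TCTA (5.63 and 5.79). These 3 were chosen after their values were seen. A gene listed without a peak may thus lie at a promoter with one.

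Coding TSS peaks recurred more often than coding promoter peaks upstream of the TSS. Of the 4596 coding TSS peaks of replicate 1, 3285 (71.5%, 95% Wilson interval 70.2 to 72.8) overlapped any replicate 2 peak by at least 1 bp, against 448 of 956 upstream peaks (46.9%, 43.7 to 50.0). The odds ratio was 2.84 (95% interval 2.46 to 3.28), with p = 4.56e-46 by Fisher's exact test, two-sided and adjusted by Benjamini-Hochberg for the 4 tests made. Of the 3438 coding TSS peaks of replicate 2, 3080 (89.6%, 88.5 to 90.6) overlapped a replicate 1 peak, against 539 of 729 upstream peaks (73.9%, 70.6 to 77.0), with an odds ratio of 3.03 (2.47 to 3.71, adjusted exact p = 1.43e-25). The lists differ in length, which sets the level of each share. Both directions count overlaps between the same 2 lists, so the results of the 2 libraries are not independent of each other. Peaks near each other are not independent counts, and the p-values leave that out of the error.

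Height and width both moved with this difference. Among promoter peaks of the lowest height quartile, 39.2% of coding TSS peaks and 24.2% of upstream peaks of replicate 1 recurred, and in the highest 95.9% and 90.3%. In replicate 2 the lowest quartile gave 72.4% and 49.6%, and the highest 99.9% and 99.2%. Stratified by height quartile, the odds ratios were 2.38 in replicate 1 and 2.66 in replicate 2 (exact Mantel-Haenszel test, adjusted p = 5.70e-25 and 1.31e-17). Stratified by quartile of width they were 1.53 (1.30 to 1.79) and 1.88 (1.52 to 2.33), with adjusted exact p = 2.50e-07 and 2.77e-08, which were smaller than without strata and still past the threshold. The difference lay in the narrower peaks of replicate 1. There 45.8% of coding TSS peaks and 32.1% of upstream peaks recurred in the lowest width quartile, 64.9% and 52.9% in the next, 76.6% and 77.1% (of 109) in the third, and 88.8% and 95.1% (of 61) in the highest. In replicate 2 coding TSS peaks had the higher share in each width quartile, from 75.8% and 67.3% in the lowest to 98.0% and 91.8% (of 49) in the highest. Counted by summits within 200 bp of each other instead of overlap, 54.8% of coding TSS peaks and 38.3% of upstream peaks of replicate 1 recurred, and 68.9% and 60.1% of replicate 2.

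Against TSS-spanning peaks of noncoding transcripts no difference passed the threshold. In replicate 1, 71.5% of coding and 69.1% of 573 noncoding peaks recurred (odds ratio 1.12, 0.922 to 1.36, adjusted exact p = 0.321), and in replicate 2, 89.6% and 90.8% of 413 (0.872, 0.597 to 1.24, adjusted exact p = 0.493). The intervals leave room for modest differences either way. Among peaks of fold 5 or more the replicate 1 odds ratio was 1.41 and passed (adjusted exact p = 0.0151), while replicate 2 gave 1.30 (adjusted exact p = 0.348).

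**Figure D4:**
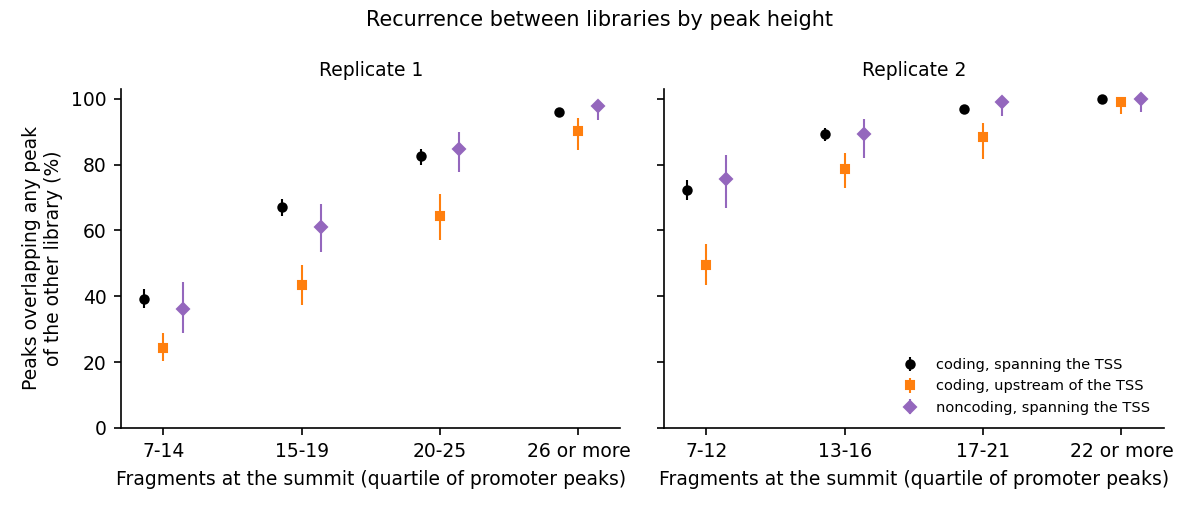
Share of promoter peaks that overlap any peak of the other library (vertical axis, %) by quartile of fragments at the summit (horizontal axis), for coding TSS peaks, upstream coding promoter peaks and TSS-spanning peaks of noncoding transcripts. Bars are 95% Wilson intervals; in the lowest quartile coding TSS peaks recur in 39.2% and 72.4% of cases, against 24.2% and 49.6% of upstream peaks.

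Where a coding TSS peak recurred, the other library mostly had a peak of the same kind. It was a coding TSS peak for 86.6% of the 3285 in replicate 1 and 92.4% of the 3080 in replicate 2. A promoter peak short of the TSS met 5.84% and 3.34%, and a 5′ UTR peak 5.30% and 2.56%, so the class changed with the exact edges of the peak. The strongest peaks without a partner were those of ALKBH3, a DNA alkylation repair enzyme (fold 9.48, 24 fragments), and CCDC130 (9.003, 30 fragments) in replicate 1, and of MIS18A, a centromere factor (7.86, 18 fragments), and FAM60A (6.77, 21 fragments) in replicate 2. Coding TSS peaks without a partner had a median of 14 fragments in replicate 1 and 11 in replicate 2, against 22 and 17 for those with one.

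Paired peaks agreed better the taller they were. The summits of the 2847 pairs lay a median of 93 bp apart (quartiles 32 to 186), and 33.4% within 50 bp. By quartile of the fragments of both libraries together, the median distance was 141, 106.5, 84 and 57 bp from the lowest to the highest. Of pairs assigned to the same transcript, 71.8% had both summits on the same side of the TSS, with 60.3% in the lowest and 85.3% in the highest quartile. Across pairs the Spearman rho was 0.76 for fragments, 0.59 for fold, 0.53 for the summit's distance from the TSS and 0.45 for width. Replicate 1 peaks were the wider in 67.8% of pairs, at a median ratio of 1.15 to replicate 2, and had 1.31 times the fragments.

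Gene lists of shared machinery varied widely around the 16.2% of all coding genes with a peak in both libraries. The lists were written from general knowledge with earlier results of these data known, and shares are given without a test. For the list genes, a peak means a coding TSS peak. A gene without one in a library can have peaks of other classes there. The chaperonin and heat shock list stood highest: 20 of 27 genes (74.1%, 95% Wilson interval 55.3 to 86.8) had a coding TSS peak in both libraries, and no further gene had one in 1 library. Among peaks of fold 5 or more the count was 12 of 27 (44.4%), against 9.56% of all genes. Of its strongest, HSPD1, the mitochondrial chaperonin, had folds of 7.93 and 7.58 on 43 and 29 fragments with the summit at −255 bp in both libraries (chr15:101373219-101374160). HSP90B1, the HSP90 of the endoplasmic reticulum, had 8.03 and 7.16 (chr5:80530699-80531774), and CCT3 of the cytosolic chaperonin had 7.17 and 8.50 with summits at −255 and −254 bp.

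The cytosolic chaperonin subunits TCP1, CCT7 and CCT8 had no coding TSS peak assigned. Of the 7 chaperone genes without one, 3 had an end inside a promoter peak that was assigned to a neighbour in both libraries: HSPE1, the partner of HSPD1, in the HSPD1 peak, TCP1 in the peak of MRPL18, a mitochondrial ribosomal protein, and HSPA14 in the peak of CDNF, a neurotrophic factor. Genes named here and below for lying in a neighbour's peak were chosen after their values were seen, unless they are among those named for having no peak. By either end of the gene, 17.1% of all coding genes had a peak of any class in both libraries.

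The anaphase-promoting complex, the ubiquitin ligase that starts anaphase, was listed with its activators. Of these 19 genes, 10 had peaks in both libraries (52.6%, 31.7 to 72.7). In replicate 1, 13 had one (68.4%) and in replicate 2, 10 (52.6%), against 26.3% and 19.8% of all coding genes. FBXO5, listed with them although it inhibits the complex, had folds of 8.42 and 8.47 and summits at 204 and 200 bp, CDC27 had 8.87 and 7.11, and ANAPC15 had 8.15 and 6.98. ANAPC2 and CDC23 had a peak in replicate 1 only, at 4.84 and 6.55. ANAPC4, ANAPC7 and ANAPC10 had none, although ANAPC10 had an end inside a peak assigned to ABCE1, a ribosome recycling factor, in both libraries.

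Of the aminoacyl-tRNA synthetases, which charge tRNAs with amino acids, 13 of 36 had a peak in both libraries (36.1%, 22.5 to 52.4). In replicate 1, 18 had one (50%) and in replicate 2, 15 (41.7%), against 26.3% and 19.8% of all coding genes. PARS2 had 6.73 and 7.44, LARS 6.69 and 7.02, and DARS 7.07 and 6.03, each with its summits at most 116 bp from the TSS. EPRS (5.31) and RARS (5.01) had a peak in replicate 1 only, and AARS, CARS and FARSA had none. YARS, RARS2 and SARS2, without a peak of their own, had an end inside a neighbour's promoter peak in both libraries. Nucleoporins, the subunits of the nuclear pore, had peaks in both at 8 of 26 genes (30.8%, 16.5 to 50.0). NUP88 had 8.44 and 7.78 with summits at 210 and 206 bp, NDC1 7.86 and 8.56, and NUP93 5.91 and 6.51. NUP43 (4.90) and AAAS (3.86) had one in replicate 1 only, and NUP35, NUP37 and NUP50 had none.

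Other complexes lay nearer the share of all genes, and the interval of each includes the 16.2%. The 95% Wilson intervals were 7.57 to 47.6% for Integrator, 6.59 to 43.0% for the peroxins and 1.27 to 31.5% for the RNA exosome. The Integrator complex, which cleaves nascent transcripts, had peaks in both libraries at 3 of 14 genes (21.4%), INTS6 (6.56 and 6.94), INTS8 (4.54 and 5.11) and INTS14 (4.37 and 4.598). INTS2 had a peak in replicate 1 only and INTS7 in replicate 2 only, and INTS1, INTS3 and INTS4 had none. The peroxins, which build peroxisomes, had 3 of 16 (18.8%), PEX13 (6.48 and 6.66), PEX2 (5.88 and 7.16) and PEX11G (5.18 and 4.67), with PEX7 among those in replicate 1 only and PEX3, PEX5 and PEX6 without one. The RNA exosome, a 3′ to 5′ ribonuclease, had 1 of 14 (7.14%), the ribonuclease subunit DIS3 (6.19 and 4.36). In replicate 1, 3 of its genes had a peak (21.4%) and in replicate 2, 5 (35.7%), against 26.3% and 19.8% of all coding genes. EXOSC2 had one in replicate 1 only and EXOSC1 in replicate 2 only, and EXOSC3, EXOSC5 and EXOSC6 had none. However, EXOSC5 had an end inside a promoter peak assigned to its neighbour BCKDHA in both libraries. EXOSC1 is opposite ZDHHC16, to which the overlapping replicate 1 peak was assigned.

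**Figure D5:**
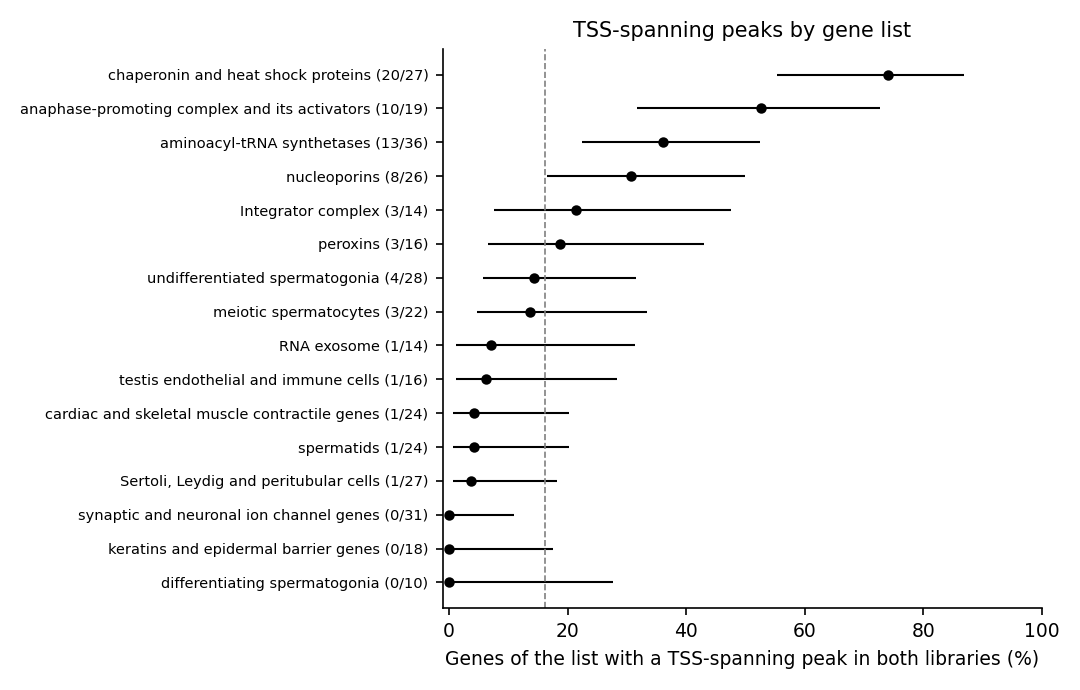
Share of the genes of each list with a coding TSS peak in both libraries (horizontal axis, %), lists ordered by share, with counts beside the names. Bars are 95% Wilson intervals and the dashed line marks the 16.2% of all protein-coding genes; the chaperone list stands at 74.1% and the keratin, neuronal and differentiating spermatogonia lists at 0.

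Germ cell lists had 0 to 4 genes with a peak in both libraries, and the interval of each list includes the 16.2% of all coding genes. Of 28 genes of undifferentiated spermatogonia, 4 had a peak in both libraries (14.3%, 5.70 to 31.5). ETV5, an ETS factor of stem cell self-renewal, had folds of 8.42 and 8.29 on 43 and 35 fragments, with summits at −9 and −12 bp (chr13:123930074-123930653). TAF4B, a TFIID subunit of germ cells, had 4.69 and 4.52 on 14 and 13 fragments, and PIWIL4, a piRNA-binding protein, 4.15 and 4.47 on 12 each. The fourth, ID4, an inhibitor of bHLH factors, had 3.68 and 3.89 and was named after its values were seen. UCHL1 (4.17) and EPHA2 (3.37) had a peak in replicate 1 only, and ZBTB16, SALL4 and GFRA1 had none. In replicate 2, UCHL1 and GFRA1 were each assigned 1 peak of another class. Of the 4, ETV5 alone passed a fold of 5 in both libraries, which is 3.57% of the 28 genes, against 9.56% of all coding genes.

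Of 10 genes of differentiating spermatogonia, 0 had a peak in both libraries, against 16.2% of all coding genes. A count of 0 of 10 allows a share of up to 27.8% (upper 95% Wilson limit). KIT, the stem cell factor receptor, had one in replicate 2 only (3.35), DNMT3B, a DNA methyltransferase, in replicate 1 only (5.26), and STRA8, SOHLH1 and DMRT1 had none. Counting peaks of every class, KIT was assigned 3 in replicate 1 and 2 in replicate 2, and STRA8 1 in replicate 1. Meiotic genes had 3 of 22 (13.6%): HSPA2, a chaperone of spermatocytes (7.29 and 5.39), SYCE3 of the synaptonemal complex (4.96 and 5.12) and MSH5, a crossover factor (6.65 and 4.85). SYCP2 had one in replicate 1 only and SPO11 in replicate 2 only, and SYCP1, SYCP3 and SYCE1 had none. Peaks of other classes were assigned to SYCP2 in replicate 2 and to SYCE1 in both libraries. Of 24 spermatid genes 1 had a peak in both, CATSPER2 of the sperm calcium channel (6.76 and 5.30), and PRM1, PRM2 and TNP1 had none.

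Markers of other cells had 0 or 1 coding TSS peak per list in both libraries, against 16.2% of all coding genes. Of 27 genes of Sertoli, Leydig and peritubular cells, 1 had a peak in both libraries, KITLG, the KIT ligand (4.54 and 5.66), and SOX9, WT1 and GATA4 had none. Of other classes, WT1 was assigned 1 peak and GATA4 2 peaks in replicate 1. By either end of the gene, 0 of the 27, KITLG included, had a peak of any class in both libraries. Of 16 endothelial and immune genes, 1 had a coding TSS peak in both libraries, KDR, a VEGF receptor (5.95 and 5.12), and PECAM1, CDH5 and TEK had none. Of 24 contractile genes of muscle, 1 had it, TNNI3, the cardiac troponin I (8.17 and 5.52), and ACTA1, ACTC1 and MYH1 had none. The keratin and epidermal list had 0 of 18, with KRT1, KRT2 and KRT3 among those without. The neuronal list had 0 of 31 in both libraries, with SNAP25 (5.56) in replicate 2 only and GRIA4 (4.62) in replicate 1 only, and SYT1, SYP and STMN2 had none. A count of 0 of 18 allows a share of up to 17.6% and 0 of 31 up to 11.03% (upper 95% Wilson limits). The intervals of the lists with 1 gene all include 16.2%: 0.657 to 18.3% for the somatic testis list, 1.11 to 28.3% for the endothelial and immune list and 0.739 to 20.2% for the muscle list.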

How the data were processed

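The data were 2 ZBTB16 CUT&Tag peak lists from 1 group of pig spermatogonia, deposited per library with the authors' annotation. Per the submitters' processing notes the assembly was Sscrofa11.1. Aligner, peak caller and caller's control: not given in the sources used here. Per the file headers, each deposited peak has a fold enrichment (a linear ratio), a −log10 p-value, a −log10 q-value and a score, and the score was not used. The authors' promoter class holds no peak that begins downstream of the TSS.

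Whole fragments and a background were fitted to each deposited fold and −log10 p-value, as fold = (fragments + 1)/(background + 1) and a Poisson tail for p, to a relative tolerance of 1e-05. This succeeded for all 10273 and 7301 peaks, and the steps were tested on simulated data. Sequencing depth is unknown. The lowest background, 1.21 in replicate 1 and 0.979 fragments in replicate 2, stands in for it. Intervals cover counting error only.

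Overlap needed 1 bp, and bedtools 2.31.1 gave the same 3285 and 3080 recurrent peaks. For gene shares, 16491 protein-coding genes of the RefSeq annotation were used, leaving out repeated symbols and LOC numbers. Of 383 list genes 352 matched by symbol, some synthetases by an older symbol matched after the table was seen. Comparisons used two-sided Fisher's exact tests with Benjamini-Hochberg adjustment over 4 tests and a threshold of 0.05. Alternatives were reciprocal overlap, a fold of 5 or more, equal list lengths, promoter peaks only, strata of height and width, and subsets of peaks. The set of peaks, the lists and the rule for named genes were chosen with earlier results of these data known. Named are the 15 strongest, 4 widest, 3 longest and 3 shortest genes, 3 farthest summits on each side, 4 opposite pairs, up to 8 genes per list and 2 unpaired peaks per library. Promoter sequence was not used here, so motif and base composition results were not run. Tools were scipy 1.17.1 and R 4.3.3 for tests, and pandas 2.3.3, numpy 2.4.6 and matplotlib 3.10.9 under Python 3.11.15.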

Additional observations from a re-analysis of the deposited data

How the results depend on the processing

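The share of coding TSS peaks that recurred depended on the definition. In replicate 1 and replicate 2 it was 59.3% and 75.9% with 50% reciprocal overlap, 83.5% and 95.3% among folds of 5 or more, 77.2% and 83.1% with lists of equal length, 66.9% and 86.8% against promoter peaks alone, and 54.8% and 68.9% by summits within 200 bp. The odds ratio against upstream peaks stayed past the threshold in both libraries under every alternative run. Against noncoding peaks it was 1.41 and 1.30 at fold 5 or more, where replicate 1 passed the threshold and replicate 2 turned direction without passing, and 0.999 in replicate 1 by summits, also turned. The cause was not tested. Median width was 681 and 577 bp in recurrent peaks and 677 and 606 bp at fold 5 or more. The median summit was −11 bp in recurrent peaks, 8 bp without other gene ends, 9 bp on plus, −11 bp on minus and −34.5 bp at NM transcripts in replicate 1. In replicate 2 it was −12 bp at fold 5 or more, 12 bp on plus, −16 bp on minus and −10 bp at NM transcripts. The highest minus lowest height quartile was −35 bp by fold in replicate 1, and −158.5 and −142 bp at NM transcripts. Median gene length was 28575 bp at fold 5 or more in replicate 1. The number of genes with a peak in both libraries, 2672, was 1577 at fold 5 or more and 3263 to 4331 with 1 library left out. Width strata, the 200 bp summit rule, the height-quartile difference with its subsets, the split by transcript kind and the gene-end count were chosen after seeing the data. No paired analysis was possible because both libraries are of 1 group. Alternatives on sense-strand motifs, on promoter base composition and on the gene table's start were not run, since sequence and strand were not used here. Summits rest on few fragments, which limits low peaks most.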
